A study of Mus musculus with 6 samples.

Results

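The genes described here were 10 genes of the muscle stretch response and of muscle protein turnover: Ankrd1, Ankrd23, Fhl1, Fhl2, Smpx, Hspb7, Trim63, Trim54, Trim55 and Fbxo32. They were chosen by name, with earlier results of these data known. All 10 were among the 43629 genes of the count tables, and all 10 were among the 15470 genes with enough reads to be tested. The study asked how DNMT1, the enzyme that copies DNA methylation onto newly replicated DNA, affects gene expression in embryonic cardiomyocytes. Cells came from E13.5 ventricles of CD-1 mice, with the tissue of each litter pooled, and were freed with papain, plated for 1 h so that quickly attaching cells could be removed, and cultured for 48 h. They were then transfected at 12 nM with either a negative siRNA (3 samples, controls) or DNMT1 siRNA, a pool of 4 siRNAs (3 samples), and were collected 72 h later by magnetic sorting for VCAM1. Both groups therefore shared the culture, the transfection and the sort. For the DNMT1 samples one label names DNMT3a siRNA as the treatment, while the titles name DNMT1. The labels do not say whether the 3 samples of a group were separate cultures, so the p-values measure only the spread between these samples.

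In heart and skeletal muscle, titin acts as a spring that runs along the sarcomere, and proteins bound to it near the Z-disc and in its elastic region take part in sensing stretch. Ankrd1 and Ankrd23 encode muscle ankyrin repeat proteins (MARPs) that bind titin and can enter the nucleus, Fhl1 and Fhl2 encode LIM-only adaptors that bind titin, and Smpx encodes a small protein of striated muscle. Damaged or surplus sarcomere protein is handled by chaperones such as Hspb7 and is removed through ubiquitin ligases, among them the MuRF proteins (Trim63, MuRF1; Trim55, MuRF2; Trim54, MuRF3) and atrogin-1 (Fbxo32).

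Reads assigned to genes ranged from 27852412 to 35896018 in the negative siRNA samples and from 13739561 to 16186310 in the DNMT1 siRNA samples. Levels are CPM, read counts scaled to a common library size with TMM normalization. The targeted gene Dnmt1 measured 159, 127 and 133 CPM with negative siRNA and 35.6, 36.2 and 30.7 CPM with DNMT1 siRNA (log2 fold change -2.03, SE 0.11, adjusted p = 0.000192), whereas Dnmt3a (0.24, adjusted p = 0.0919) and Dnmt3b (0.21, adjusted p = 0.444) did not pass the test. Negative siRNA replicate 2 stood apart from the other controls on the second principal component (-37.1 against 24.0 and 18.4). The cells are labelled as cardiomyocytes, and markers of these cells were present, but 8 fibroblast markers summed to 36082 to 55676 CPM in the controls and 27401 to 29238 CPM with DNMT1 siRNA, above the 9 cardiomyocyte markers in every sample (1689 to 2061 and 3462 to 4396 CPM). The 3 collagen genes made up 96.1 to 97.6% of the fibroblast sum, and the other 5 fibroblast markers summed to 1245 to 1360 CPM in the controls and 1018 to 1115 CPM with DNMT1 siRNA, below the cardiomyocyte markers in every sample.

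With DNMT1 siRNA, 3 of the 10 genes were up-regulated (false discovery rate, FDR, under 0.05 and a fold change over 1.5 in edgeR's quasi-likelihood test): Smpx 3.07-fold, Trim63 2.12-fold and Ankrd1 1.86-fold. None was down-regulated. By the same limits, 4.26% of all tested genes passed in the upward direction and 2.23% in the downward direction. The fold changes of 9 of the 10 genes lay above 1, and their median log2 fold change was 0.63, against -0.0049 over all tested genes. Because the 10 genes were chosen with earlier results known, these contrasts with all tested genes are a description. Without the fold limit, 4 genes were higher at FDR under 0.05 (the above with Hspb7; 6.81% of all tested genes) and 1 was lower (Fhl1; 5.65% of all tested genes). Every DNMT1 siRNA sample lay above every control for 7 of the 10 genes (18.3% of all tested genes) and below every control for 1 gene, Fhl1 (17.7% of all tested genes), while Ankrd23 and Trim55 overlapped between the groups. With 3 samples against 3, the exact permutation test cannot give a p below 0.1 for a single gene. The changes differed in size from 0.802-fold for Fhl1 to 3.07-fold for Smpx, and the plot of fold changes shows the 95% interval of each. These intervals are per gene and not adjusted for the number of genes tested. An interval can therefore leave out 1 where the adjusted p does not pass.

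**Figure D1:**
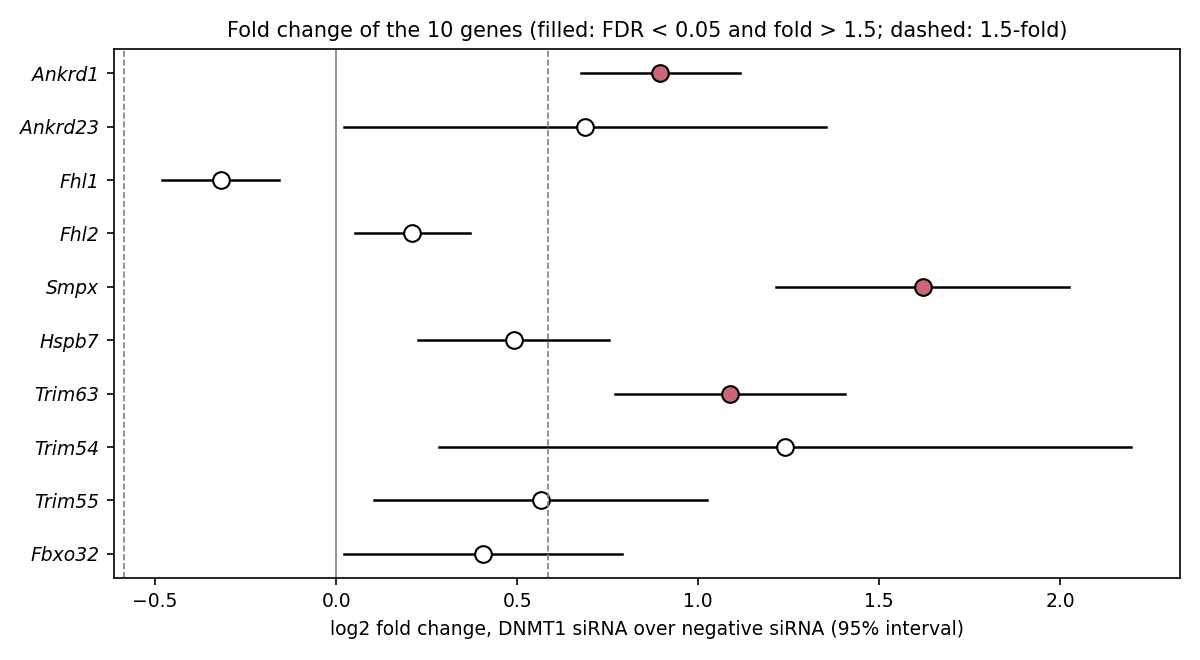
Log2 fold change of each of the 10 genes, DNMT1 siRNA over negative siRNA, as points with 95% intervals from edgeR, not adjusted for the number of genes tested. Filled points passed an FDR of 0.05 and a 1.5-fold limit, which dashed lines mark. Smpx (1.62), Trim63 (1.09) and Ankrd1 (0.90) are filled, Fhl1 (-0.32) is the gene below 0, and the interval of Trim54 is the widest.

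The promoters of the 3 up-regulated genes are shown first, and their CpG sites are marked because DNMT1 acts on such sites. The sequences are from RefSeq (GRCm38.p6) and run from 250 bases before to 50 bases after a transcription start, 5′ to 3′ on the gene's strand, with CpG sites in capitals. Ankrd1 lies on the minus strand at chr19:36119795-36120094, Smpx on the plus strand at chrX:157698723-157699022 and Trim63 on the plus strand at chr4:134314870-134315169.
Ankrd1: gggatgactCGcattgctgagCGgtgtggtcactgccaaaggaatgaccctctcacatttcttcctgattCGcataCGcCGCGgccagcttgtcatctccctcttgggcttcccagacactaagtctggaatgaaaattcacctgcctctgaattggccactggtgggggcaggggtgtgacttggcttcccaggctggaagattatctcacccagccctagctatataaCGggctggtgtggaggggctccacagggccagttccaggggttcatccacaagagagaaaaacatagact
Smpx: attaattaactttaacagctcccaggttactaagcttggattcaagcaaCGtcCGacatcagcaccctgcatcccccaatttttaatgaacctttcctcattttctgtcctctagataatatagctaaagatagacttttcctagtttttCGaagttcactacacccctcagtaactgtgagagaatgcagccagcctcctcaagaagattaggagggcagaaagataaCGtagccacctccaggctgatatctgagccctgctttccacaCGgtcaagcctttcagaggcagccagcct
Trim63: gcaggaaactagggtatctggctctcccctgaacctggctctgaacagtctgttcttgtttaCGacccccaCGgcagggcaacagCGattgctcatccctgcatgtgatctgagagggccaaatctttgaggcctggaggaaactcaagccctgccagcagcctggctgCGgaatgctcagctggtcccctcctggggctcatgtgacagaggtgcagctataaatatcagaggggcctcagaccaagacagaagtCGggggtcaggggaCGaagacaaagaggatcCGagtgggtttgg
These hold 7, 5 and 7 CpG sites, against a median of 7 (quartiles 3 and 20) over the 32851 promoters of the table. In all, 8 of the 10 genes had 11 promoters in the table (Trim55 and Fbxo32 had none), and 7 of those 11 held fewer CpG sites than the median. No methylation values were analysed here.

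The same windows were searched on both strands for the letters of 7 short motifs. The MCAT motif bound by TEAD factors (CATTCC) was in 6 of the 11 promoters, against 14.7% of all promoters in the table, and began at -210 and -123 in Ankrd1, at -80 in Trim63, at -163 and -75 in Trim54 and at 4 in Hspb7, counted from the start, with the others in Ankrd23. The CArG box of SRF was in 3 (1.63% of all), the FOXO motif GTAAACA in 2, Ankrd23 and Trim63 (3.65%), the TATA motif TATAAA in 3 (13.6%), the MEF2 motif in 1 (3.19%), the E-box CANNTG in 9 (72.3%) and the GATA motif AGATAA in 4 (11.2%). Smpx held none of these except the GATA motif. The MEF2 match, in Fhl2 at -31, overlaps a TATA match there. A match is a run of letters and does not show that a factor binds.

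Ankrd1 (ENSMUSG00000024803, chr19:36111961-36120099, GRCm38, minus strand), a cardiac MARP known to rise with stretch, was among the most abundant of the 10 genes. It measured 431, 396 and 498 CPM in the 3 negative siRNA samples and 836, 851 and 779 CPM in the 3 DNMT1 siRNA samples. The groups lay far apart, since the lowest DNMT1 siRNA sample was above the highest control, and the spread within each was small. The mean went from 442 ± 52.1 to 822 ± 38.2 CPM (SD, n = 3 each). On the log2 scale Ankrd1 rose by 0.90 (SE 0.10; adjusted p = 0.00166), which is 1.86-fold (95% interval 1.60 to 2.16). Ankrd23 (ENSMUSG00000067653, chr1:36530188-36536883, minus strand), the diabetes-related MARP, was read at only 41, 45 and 50 counts in the controls and 28, 44 and 30 counts with DNMT1 siRNA. In CPM these were 1.10, 1.43 and 1.79 against 1.73, 2.95 and 2.26, and the groups overlapped. Its log2 fold change of 0.69 (SE 0.29) did not pass the test (adjusted p = 0.159), and the 95% interval ran from 1.02 to 2.55-fold. The GENCODE annotation places another gene model, Gm42417, on the same strand over 78.2% of the exon bases of Ankrd23, so reads of the pair cannot be told apart there. If the counting used both models, such reads were left out as ambiguous between genes, and Ankrd23 was undercounted.

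**Figure D2:**
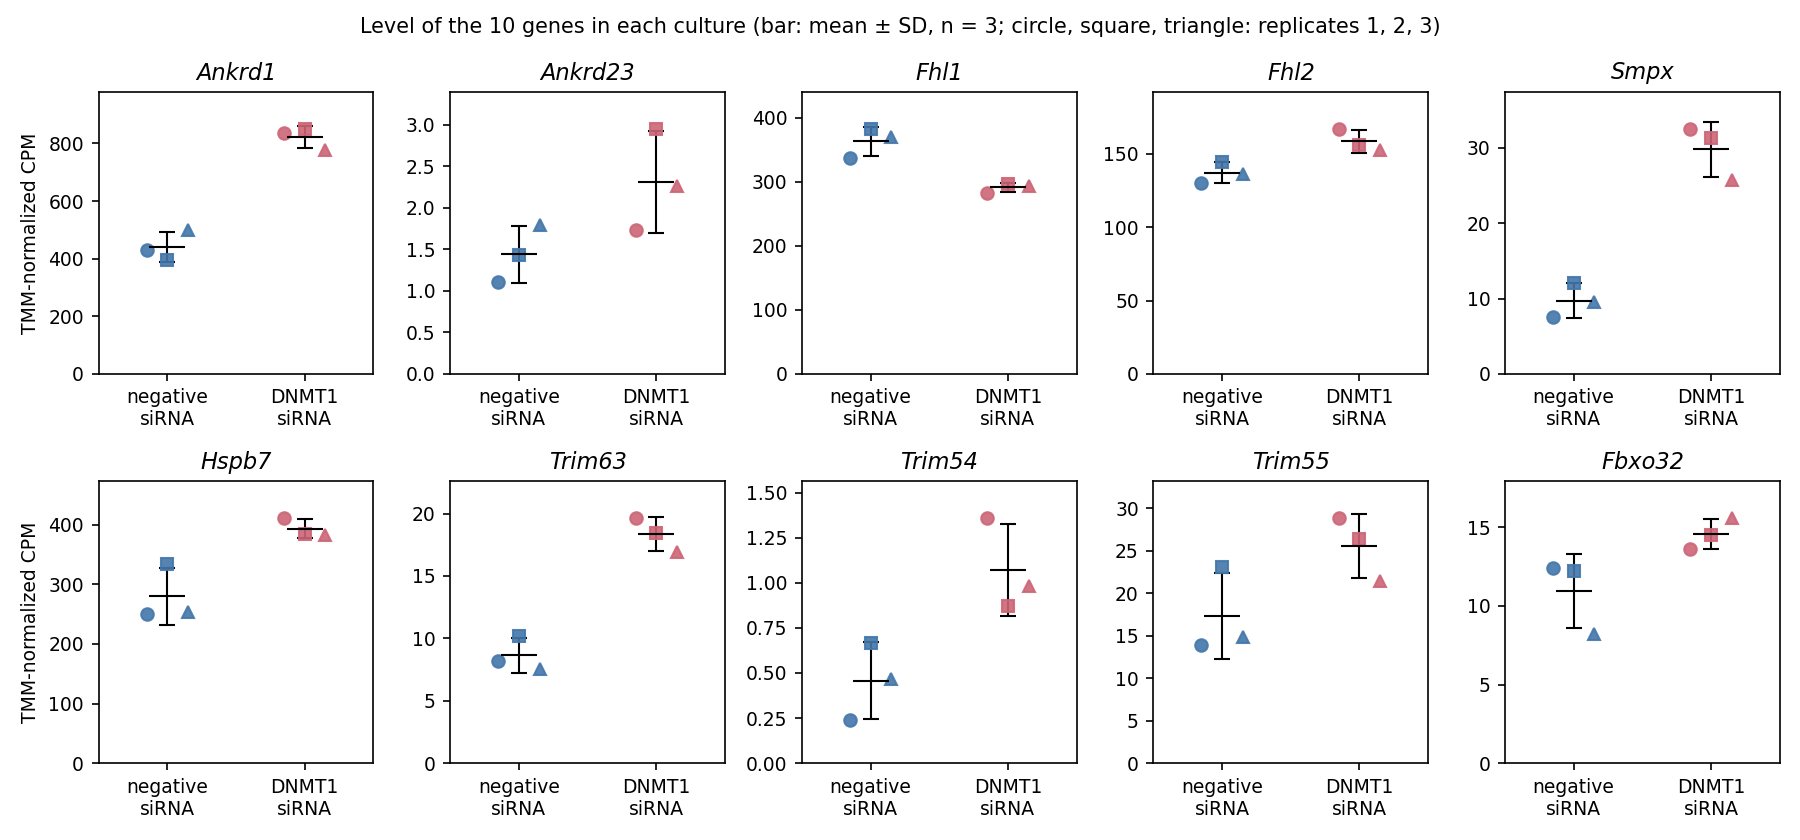
TMM-normalized CPM of each of the 10 genes in the 3 negative siRNA and 3 DNMT1 siRNA samples, 1 panel per gene, on linear axes that start at 0; circles, squares and triangles are replicates 1, 2 and 3 and bars give the mean ± SD. The groups are apart in 8 panels, with Fhl1 the gene whose DNMT1 siRNA samples are the lower ones, and they overlap for Ankrd23 and Trim55.

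Fhl1 and Fhl2, both LIM-only titin-binding adaptors, were abundant in every sample and had fold changes on opposite sides of 1. Fhl1 (ENSMUSG00000023092, chrX:56731787-56793346, plus strand) measured 338, 383 and 370 CPM in the controls and 283, 297 and 294 CPM with DNMT1 siRNA. The treated samples sat below all controls and close to each other. The change to 0.802-fold (95% interval 0.717 to 0.896, log2 -0.32, SE 0.07) passed the FDR limit (adjusted p = 0.0249) but was smaller than 1.5-fold. Without any 1 of the DNMT1 siRNA samples Fhl1 did not pass the FDR limit (adjusted p = 0.0940 to 0.114). Fhl2 (ENSMUSG00000008136, chr1:43123074-43196984, minus strand) measured 130, 144 and 136 CPM in the controls and 167, 156 and 152 CPM with DNMT1 siRNA. These groups did not overlap either, with the DNMT1 siRNA samples higher, but the log2 fold change of 0.21 (SE 0.07) did not pass the test (adjusted p = 0.0848; 95% interval 1.04 to 1.29-fold). Without control replicate 2 it passed the FDR limit at 0.25 (adjusted p = 0.0275), still under 1.5-fold. Per kilobase of exon, the ratio of Fhl1 to Fhl2 was 1.33, 1.35 and 1.39 in the controls and 0.867, 0.972 and 0.986 with DNMT1 siRNA. By this measure Fhl1 was the higher of the pair in each control and Fhl2 the higher in each DNMT1 siRNA sample. The ratio did not overlap between the groups (exact permutation test, two-sided p = 0.1, the smallest possible, 0.167 adjusted over 5 family ratios). In CPM, not divided by length, Fhl1 was the higher in every sample. Which gene is the higher thus depends on the exon lengths used, while the lower ratio with DNMT1 siRNA does not.

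Fhl2 is shown with both of its promoters in the table, because they differ most in CpG content among the 10 genes. The first lies at chr1:43163912-43164211 and the second at chr1:43196712-43197011, both on the minus strand, with CpG sites in capitals.
Fhl2 first: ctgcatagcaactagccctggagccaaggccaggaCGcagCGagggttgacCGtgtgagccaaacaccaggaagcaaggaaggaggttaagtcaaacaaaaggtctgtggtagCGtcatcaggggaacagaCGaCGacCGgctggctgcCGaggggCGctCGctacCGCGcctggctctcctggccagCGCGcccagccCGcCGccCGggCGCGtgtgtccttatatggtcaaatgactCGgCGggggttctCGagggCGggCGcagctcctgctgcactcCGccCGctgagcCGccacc
Fhl2 second: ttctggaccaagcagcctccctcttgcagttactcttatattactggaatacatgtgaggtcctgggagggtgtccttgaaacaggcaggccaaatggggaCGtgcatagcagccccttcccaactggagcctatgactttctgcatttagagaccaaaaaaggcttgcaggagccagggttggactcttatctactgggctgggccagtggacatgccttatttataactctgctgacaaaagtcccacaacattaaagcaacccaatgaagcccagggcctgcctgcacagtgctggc
The first holds 27 CpG sites, more than 84.5% of all promoters in the table, and the second holds 1, more than 5.43%. Both hold a CArG box, at -31 and -96 from their starts. Gene counts do not tell which start was used.

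Smpx (ENSMUSG00000041476, chrX:157698910-157752591, plus strand), a small protein of the costamere known from striated muscle, had the largest fold change of the 10 genes. It measured 7.50, 12.1 and 9.60 CPM in the controls and 32.5, 31.3 and 25.7 CPM with DNMT1 siRNA. The lowest DNMT1 siRNA sample was thus above the highest control by a wide margin. The mean went from 9.73 ± 2.30 to 29.8 ± 3.65 CPM (SD, n = 3 each). On the log2 scale Smpx rose by 1.62 (SE 0.18; adjusted p = 0.00181), which is 3.07-fold (95% interval 2.32 to 4.07). Hspb7 (ENSMUSG00000006221, chr4:141420779-141425311, plus strand), the cardiovascular small heat shock protein, measured 250.1, 334 and 254 CPM in the controls and 411, 384 and 383 CPM with DNMT1 siRNA. The groups did not overlap, and control replicate 2 came nearest to the DNMT1 siRNA samples. The log2 fold change of 0.49 (SE 0.11) passed the FDR limit (adjusted p = 0.0310) at 1.40-fold (95% interval 1.17 to 1.69), below the 1.5-fold limit. It did not pass the FDR limit when control replicate 1 or 3 or any 1 of the DNMT1 siRNA samples was left out (adjusted p = 0.0572 to 0.127).

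The 3 MuRF genes all had fold changes above 1, and 1 of them passed the test. Trim63 (ENSMUSG00000028834, chr4:134315120-134329629, plus strand), the MuRF1 ligase of sarcomere proteins and a marker of muscle atrophy, measured 8.20, 10.2 and 7.52 CPM in the controls and 19.6, 18.5 and 16.9 CPM with DNMT1 siRNA. Every DNMT1 siRNA sample lay above every control. The mean went from 8.64 ± 1.39 to 18.3 ± 1.35 CPM (SD, n = 3 each). On the log2 scale Trim63 rose by 1.09 (SE 0.14; adjusted p = 0.00318), which is 2.12-fold (95% interval 1.70 to 2.65). Trim55 (ENSMUSG00000060913, chr3:19644474-19692421, plus strand), MuRF2, measured 13.9, 23.1 and 14.9 CPM in the controls and 28.8, 26.3 and 21.5 CPM with DNMT1 siRNA. Control replicate 2 lay above the lowest DNMT1 siRNA sample, and the log2 fold change of 0.57 (SE 0.20) did not pass the test (adjusted p = 0.105; 95% interval 1.08 to 2.04-fold). Trim54 (ENSMUSG00000062077, chr5:31116712-31137630, plus strand), MuRF3, a ligase associated with microtubules, had the fewest reads of the 10 genes, with 9, 21 and 13 counts in the controls and 22, 13 and 13 counts in the shallower DNMT1 siRNA libraries. In CPM these were 0.242, 0.667 and 0.466 against 1.36, 0.873 and 0.979. The groups did not overlap in CPM, but counting error was wide (exact Poisson 95% interval 4.12 to 17.1 for 9 counts and 13.8 to 33.3 for 22 counts), and the log2 fold change of 1.24 (SE 0.42) did not pass the test (adjusted p = 0.0908; 95% interval 1.22 to 4.58-fold). An antisense gene model, Gm15469, covers 26.6% of the exon bases of Trim54, and without strand information reads of the pair cannot be told apart there. Such reads may likewise have been left out as ambiguous.

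Fbxo32 (ENSMUSG00000022358, chr15:58175879-58214932, minus strand), which encodes the F-box protein atrogin-1 and is the usual partner marker of Trim63 in muscle atrophy, measured 12.4, 12.2 and 8.24 CPM in the controls and 13.6, 14.5 and 15.6 CPM with DNMT1 siRNA. The groups lay next to each other without overlap. The log2 fold change of 0.41 (SE 0.17) did not pass the test (adjusted p = 0.151; 95% interval 1.02 to 1.73-fold), an interval that includes changes above 1.5-fold. Per kilobase of exon, the ratio of Trim63 to Fbxo32 was 1.62, 2.05 and 2.24 in the controls and 3.53, 3.13 and 2.67 with DNMT1 siRNA. The ratio of Trim55 to Trim63 was 1.81, 2.42 and 2.12 in the controls and 1.57, 1.52 and 1.35 with DNMT1 siRNA. Neither ratio overlapped between the groups (exact permutation test, two-sided p = 0.1 each, 0.167 adjusted over 5 ratios), and Trim63 stood higher relative to both genes in each DNMT1 siRNA sample than in any control. The ratios of Ankrd1 to Ankrd23 (295 ± 61.3 and 348 ± 94.0, exact p = 0.5) and of Trim63 to Trim54 (11.0 ± 5.30 and 8.91 ± 1.70, exact p = 0.8) overlapped between the groups. Their denominators, Ankrd23 and Trim54, share exon bases with other gene models and may be undercounted.

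Control replicate 2 held the highest control level of Hspb7, Smpx, Trim63, Trim54, Trim55, Fhl1 and Fhl2. Leaving it out raised the number of up-regulated genes among the 10 from 3 to 6 (5.42% of all genes tested without it). The 3 added genes were Hspb7 (log2 fold change 0.64, adjusted p = 0.00027), Trim55 (0.83, adjusted p = 0.00338) and Trim54 (1.63, adjusted p = 0.0336). Ankrd1, Smpx and Trim63 were up-regulated in all 15 alternative settings, with log2 fold changes of 0.82 to 0.99, 1.46 to 1.81 and 1.00 to 1.22. Ankrd23, Fhl2 and Fbxo32 were up-regulated in none of them. The plot across settings shows each value. Among the controls, replicate 2 also had the highest marker sums for fibroblasts (55676 CPM), cardiomyocytes (2061 CPM) and smooth muscle and pericytes (8060 CPM). The same held for endothelial (102 CPM) and macrophage markers (24.9 CPM), but not for epicardial, skeletal muscle or erythroid markers. The part of these marker levels in its levels of the 10 genes was not tested.

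**Figure D3:**
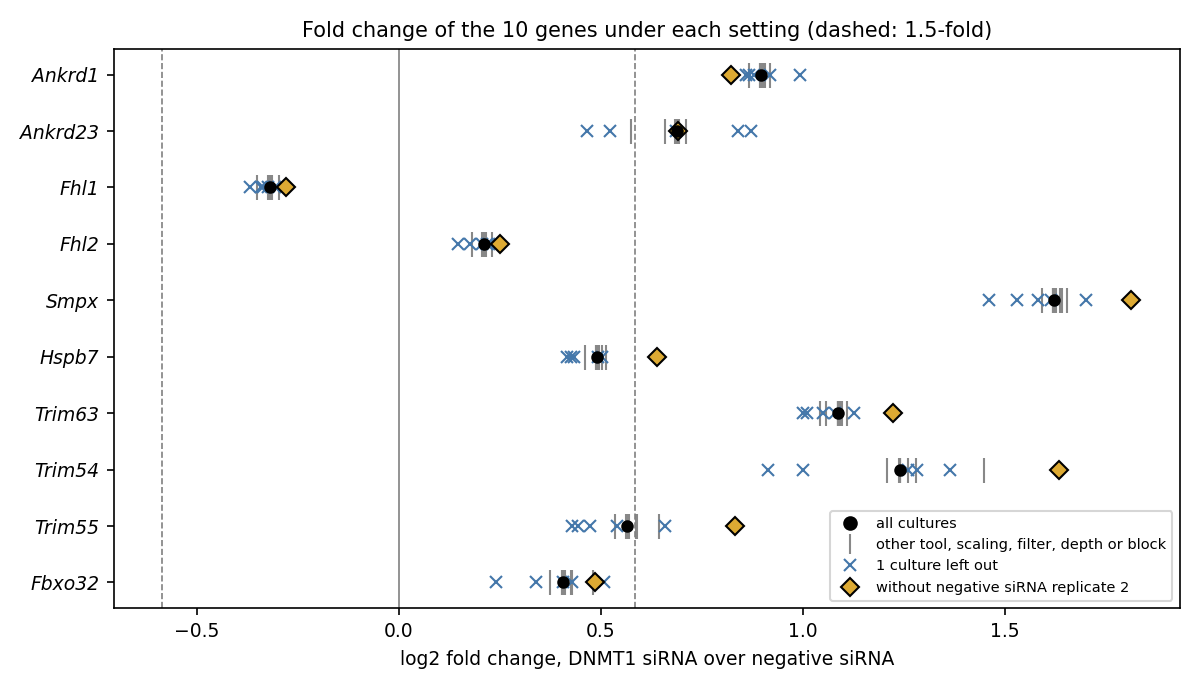
Log2 fold change of each of the 10 genes, DNMT1 siRNA over negative siRNA, with black points for the reported fit, grey ticks for another tool, scaling, filter, depth or block, crosses for a sample left out and diamonds for negative siRNA replicate 2 left out. No gene changes sign, Smpx stays between 1.46 and 1.81, and Trim54 ranges from 0.91 to 1.63.

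Per kilobase of exon, Ankrd1 had the highest level of the 10 genes in the controls (153 ± 18.0 CPM per kb, above 99.0% of the 15392 tested genes with a known length), and Hspb7 (101 ± 17.2), Fhl1 (97.9 ± 6.20) and Fhl2 (72.2 ± 3.75) came next. Hspb7 and Fhl1 overlapped between samples, and both lay above Fhl2. Much lower were Trim55 (6.50 ± 1.90), Smpx (4.28 ± 1.01), Trim63 (3.04 ± 0.489), Fbxo32 (1.57 ± 0.339), Ankrd23 (0.534 ± 0.128) and Trim54 (0.319 ± 0.148). In that order Trim55 overlapped Smpx, Smpx overlapped Trim63 and Ankrd23 overlapped Trim54. The lengths of Ankrd23 and Trim54 include exon bases shared with other gene models, so their levels may be too low. With DNMT1 siRNA, Smpx (13.1 ± 1.61 CPM per kb) lay above Trim55 (9.61 ± 1.41) without overlap, and Fhl2 (83.5 ± 4.02) above Fhl1 (78.5 ± 1.89). Smpx moved from above 48.7% to above 77.0% of tested genes by this level and Trim63 from 40.7% to 59.5%, while Ankrd1 moved from 99.0% to 99.6%. The summed level of the 10 genes, which the abundant Ankrd1, Fhl1 and Hspb7 dominate, was 1270 ± 67.3 CPM in the controls and 1756 ± 56.8 CPM with DNMT1 siRNA (SD, n = 3 each).

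Other genes of the same pathways were read from 7 lists. Beside their counts stand the shares over all tested genes, 4.26% up-regulated and 2.23% down-regulated. Among 15 genes for titin and its Z-disc partners in stretch sensing, 12 were tested, 7 were up-regulated and none was down-regulated, with a median log2 fold change of 0.88. Ttn, titin itself, measured 148, 253 and 208 CPM in the controls and 728, 928 and 746 CPM with DNMT1 siRNA (log2 fold change 1.98, SE 0.19, adjusted p = 0.00118). Mypn, which encodes the MARP-binding Z-disc protein myopalladin, went from 1.53, 1.87 and 2.26 to 9.26, 8.06 and 6.25 CPM (2.07, SE 0.22, adjusted p = 0.00156). Tcap, the titin cap telethonin, was up-regulated as well (1.65, SE 0.34, adjusted p = 0.0198). Among the relatives of the MARP and LIM genes, 2 of 10 tested genes were up-regulated, Ldb3 (0.88, SE 0.19, adjusted p = 0.0215), a Z-disc PDZ-LIM protein, and Crip2 (0.74, SE 0.07, adjusted p = 0.00125), a LIM-only protein. The median of that list was -0.06.

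Of 14 tested ubiquitin ligase genes of muscle other than the MuRF genes and Fbxo32, 2 were up-regulated and none down-regulated (median log2 fold change 0.22). The shares over all tested genes were 4.26% and 2.23%. Fbxo40, a muscle F-box protein, measured 3.74, 3.11 and 3.51 CPM in the controls and 13.6, 14.7 and 10.2 CPM with DNMT1 siRNA (log2 fold change 1.90, SE 0.17, adjusted p = 0.000911). Asb2, which targets filamin, changed by 1.05 (SE 0.24, adjusted p = 0.0293). Of 19 tested FOXO factors and genes of the atrophy programme, none was up-regulated and 1 was down-regulated, Eif4ebp1, a repressor of translation (117, 175 and 140 CPM against 85.0, 79.8 and 83.9 CPM; -0.79, SE 0.13, adjusted p = 0.00913), and the median was 0.01. None of the 14 genes for 20S proteasome subunits passed the fold limit, and their median was -0.27. Of these, 5 were lower at FDR under 0.05 (5.65% of all tested genes) and none higher (6.81% of all tested genes). The gene with the lowest adjusted p was Psma7 (78.9, 80.6 and 70.2 CPM against 58.7, 61.1 and 58.3 CPM, log2 fold change -0.37, SE 0.08, adjusted p = 0.0201). Among 13 tested small heat shock proteins and chaperone-assisted autophagy genes, 1 was up-regulated, Cryab, the αB-crystallin chaperone (191, 189 and 189 CPM against 295, 286 and 291 CPM; 0.61, SE 0.06, adjusted p = 0.00112), with a list median of 0.17. Of 25 YAP and TEAD factors and target genes, a list that includes known mechanical response genes, 1 was up-regulated (Nt5e, 1.00, SE 0.11, adjusted p = 0.00196) and 1 down-regulated (Fjx1, -0.996, SE 0.13, adjusted p = 0.00322), with a median of 0.03. Each was 4% of that list, near the shares over all tested genes.

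The counts of these lists changed when single samples were left out, and so did those over all genes. Over all genes, 659 were up-regulated with all samples, 823 without control replicate 2 and 647 without control replicate 3. Without DNMT1 siRNA replicate 1, 2 or 3 they were 316, 255 and 314. Without control replicate 1, 472 were down-regulated, against 345 with all samples. The titin list had 5 up-regulated genes of 13 tested without DNMT1 siRNA replicate 1 or 2, against 7 of 12 with all samples. Its median ranged from 0.55 without DNMT1 siRNA replicate 1 (13 genes) to 1.01 without control replicate 2 (12 genes). It was 0.57 without control replicate 1 (13 genes). Medians over 12 and 13 genes do not compare the same set. The MARP and LIM relatives had 1 up-regulated gene without any 1 of the DNMT1 siRNA samples, 3 without control replicate 2, and 1 down-regulated gene without control replicate 1, with medians from -0.16 to 0.08. The ligases had 1 up-regulated gene without control replicate 3 or DNMT1 siRNA replicate 1 or 2 and 3 without control replicate 2. The heat shock and autophagy list had 2 without control replicate 2, and its median was 0.10 without control replicate 1. Cryab was not called without DNMT1 siRNA replicate 1 or with no filter on low counts. Without control replicate 1, 2 genes each of the FOXO list and of the YAP and TEAD list were down-regulated, and Eif4ebp1 was not called without DNMT1 siRNA replicate 2. With a sample left out the median of the FOXO list lay between -0.10 and 0.03, and that of the YAP and TEAD list between 0.01 and 0.11.

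**Figure D4:**
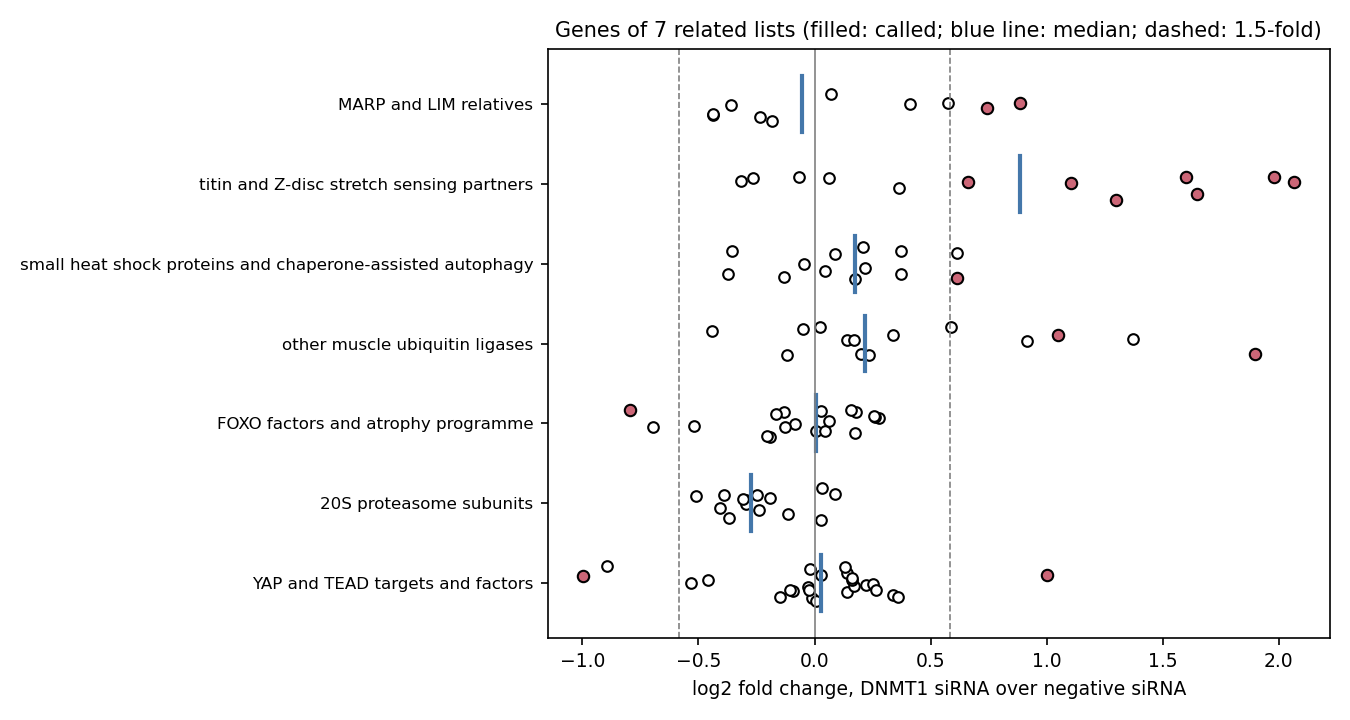
Log2 fold change, DNMT1 siRNA over negative siRNA, of each tested gene in 7 lists of related genes; each point is a gene, filled where it passed the FDR and fold limits, and blue lines are medians. The titin and Z-disc list has 7 of its 12 genes up-regulated (4.26% of all tested genes) and a median of 0.88, whereas the 20S proteasome list has none and a median of -0.27.

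Markers of cell types moved with the same contrast. Of 9 cardiomyocyte markers, 8 were up-regulated (median log2 fold change 1.12), and their summed level was higher in every DNMT1 siRNA sample than in any control, with Myh6 (745 and 1976 CPM, group means) and Tnnt2 (776 and 1186 CPM) the most abundant. Of 8 fibroblast markers, 3 were down-regulated and none up-regulated, Col1a1 at 23247 and 14774 CPM being the most abundant, followed by Col1a2 at 10377 and 6411 CPM. Of 7 smooth muscle and pericyte markers, 1 was down-regulated (summed level 6472 ± 1396 and 4640 ± 98.2 CPM), with Acta2 at 3716 and 2618 CPM and Tagln at 2153 and 1596 CPM. In bulk samples, a change in the share of a cell type and a change in RNA per cell cannot be told apart, and the part of these marker changes in the results for the 10 genes was not tested. Of 7 endothelial markers, 3 were up-regulated (summed level 84.5 and 201 CPM), and 6 had fold changes above 1. Most of the rise in the sum came from Npr3 (15.3 and 103 CPM). Tek, the most abundant of the 7 in the controls, was lower (30.6 and 24.0 CPM). Of 8 skeletal muscle markers, the defining factors Myod1, Myog, Myf5 and Pax7 had at most 6 counts in any sample, and 2 of the 3 tested markers were up-regulated (summed level 15.4 and 33.8 CPM). Epicardial markers had 1 of 6 down-regulated (1698 and 1793 CPM), and of the macrophage (19.2 and 11.0 CPM) and erythroid markers (0.920 and 2.30 CPM) none of 5 and of 1 tested passed. None of the lists had its tested markers at 0.

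**Figure D5:**
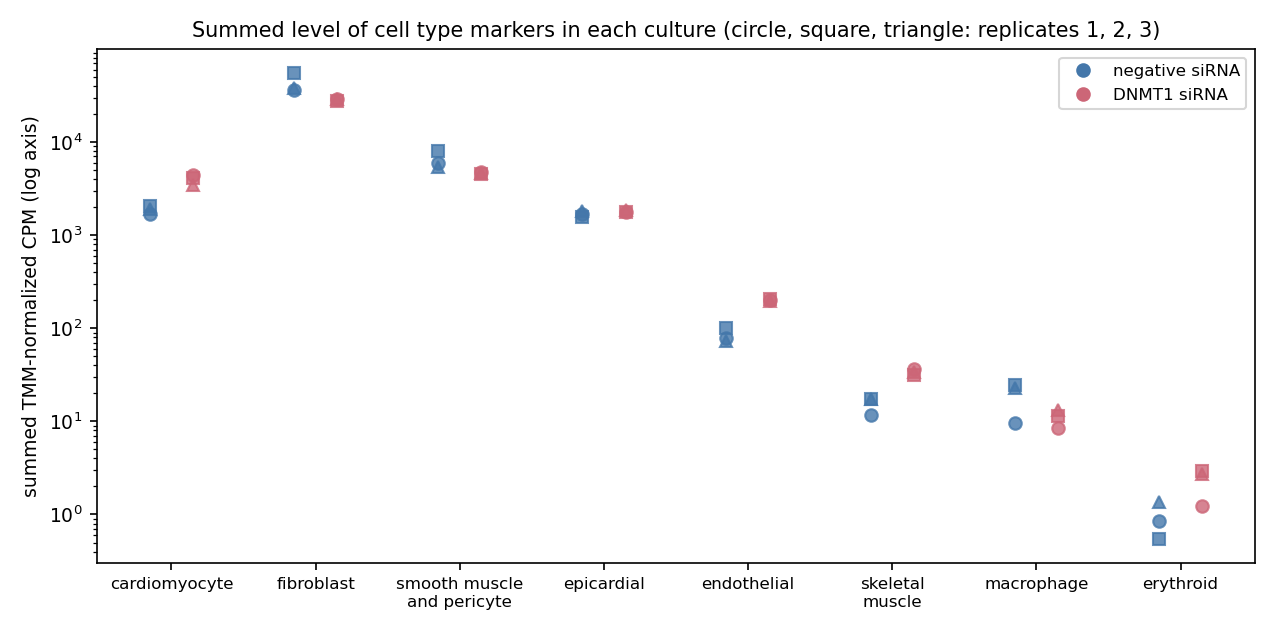
Summed TMM-normalized CPM (log axis) of the markers of 8 cell types in each sample, with negative siRNA in blue and DNMT1 siRNA in red; circle, square and triangle are replicates 1, 2 and 3 of a group. Cardiomyocyte sums are higher with DNMT1 siRNA (3462 to 4396 against 1689 to 2061 CPM), fibroblast sums are lower, and the square of the negative siRNA group has the highest fibroblast sum (55676 CPM).

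The genes whose pattern over the 6 samples was most like that of each up-regulated gene were sought among 13259 protein-coding genes, by the root mean square difference of log2 CPM after centring. For Ankrd1 these were Sat1 (0.0479), an enzyme of polyamine breakdown, and Etv1 (0.0514), an ETS transcription factor. For Smpx they included Epn3 (0.0589), an epsin. For Trim63 they were Parm1 (0.0841) and Tmtc1 (0.0945).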

How the data were processed

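RNA-Seq libraries were made from poly(A) RNA with a kit that does not mark strand. The authors checked reads with FastQC, aligned them with TopHat2 to mm10 and counted them per gene with HTSeq, and deposited raw counts for each sample, which are the values used here. Rows that name no gene were left out. Among them, reads outside annotated exons made up 14.6 to 17.5% in controls and 24.4 to 32.0% with DNMT1 siRNA. Reads ambiguous between genes made up 3.58 to 3.65% and 6.02 to 6.35%. These are shares of the reads on genes, outside exons or ambiguous. Alignments that were not unique are not in that base. They numbered 24706413 to 32930393 in controls and 21776384 to 25901133 with DNMT1 siRNA.

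Counts were normalized by TMM and tested with the quasi-likelihood F test of edgeR 4.0.16 (R 4.3.3), 3 samples against 3, without covariates. Genes were kept by filterByExpr (minimum count 10, minimum total 15), p-values were adjusted by Benjamini-Hochberg over all 15470 tested genes, and genes with FDR under 0.05 and a fold change over 1.5 were called. SE was taken as |log2 fold change|/√F. Exon lengths and gene positions came from GENCODE M21 (GRCm38). The scripts were tested on simulated data. Replicates differed by more than sampling noise. Chi-square per degree of freedom was 26.4 to 54.5 between controls and 2.70 to 9.86 between the shallower DNMT1 siRNA samples. The part of depth in this difference was not tested.

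The 10 genes and all lists were chosen with earlier results of these data known, so list counts are a description. Named beside them are up to 4 called genes with the largest change per related list (if none, that with the lowest adjusted p), the 2 most abundant markers per cell type, and the 2 genes nearest in pattern. Where fewer than these are named, the others are covered by the counts or are not reported here. Alternatives were DESeq2 1.42.0, the edgeR exact test, RLE and upper-quartile normalization, other filters, thinned libraries, a replicate block, no fold limit and leaving out each sample.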

Additional observations from a re-analysis of the deposited data

Results flagged for a closer look

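None of the comparisons used the reads that lay outside annotated exons. With alignments that were not unique left out, their share was higher with DNMT1 siRNA (29.3% ± 4.23) than with negative siRNA (16.4% ± 1.58, SD, n = 3 each, exact permutation test, two-sided p = 0.1, the smallest this design allows). Such reads are not among the counts of any of the 10 genes, and their part in the results was not tested.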

How the results depend on the processing

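Ankrd1, Smpx and Trim63 were up-regulated in all 15 alternatives, with adjusted p-values of at most 0.0177, 0.0177 and 0.0264, and none of the 10 genes changed sign in any. Over all genes, 994 were higher and 701 lower with no filter on low counts, which also moved the median log2 fold change of all genes to 0.11, and 1054 higher and 874 lower with no fold limit, against 659 and 345; with no fold limit 1 of the 10 genes was lower. Leaving out 1 sample gave 255 to 823 higher and 112 to 472 lower genes, with 3 to 6 of the 10 genes higher and 0 to 0 lower; the 6 came without negative siRNA replicate 2. Samples with equal replicate numbers were not more alike than others. Correlations of deviations were 0.0064, -0.02 and 0.03 for numbers 1, 2 and 3, and -0.076 to 0.065 for different numbers. With 3 samples per group these values cannot exclude a pairing. A fit with a replicate block called 513 higher and 285 lower genes, with 3 of the 10 higher and 0 lower. In that fit the adjusted p of Fhl1 was 0.0532 and that of Hspb7 0.0484. Trim54 was not tested where every sample needed 10 counts. Depth limits Trim54 and Ankrd23, at 9 to 22 and 28 to 50 counts per sample.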
